A study of Homo sapiens with 6 samples.

Results

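The 10 genes described here encode intermediate filament proteins and lamins: VIM, NES, GFAP, SYNM, KRT8, KRT18 and KRT19 for cytoplasmic filaments, and LMNA, LMNB1 and LMNB2 for the nuclear lamina. They were taken by symbol, and all 10 were found among the 57133 symbols of the count table. RNA-seq was available for 6 libraries of T98G, a human glioblastoma cell line, in which CBX8 had been disrupted with CRISPR-Cas9. The CBX8 KO group (3 libraries) carried the empty doxycycline-inducible lentiviral vector, and the WT CBX8 re-expression group (3 libraries) carried the vector with WT CBX8. Both groups also carried the rtTA transactivator and received doxycycline at 1 µg/ml for 72 h. CBX8 is a chromodomain subunit of Polycomb repressive complex PRC1, which silences genes. The comparison therefore asks which of these genes differ once CBX8 is expressed from this vector in cells in which it was disrupted. The genotype label of the re-expression libraries reads wild type, whereas their titles and the methods of the study give re-expression in the CBX8 KO line, and T98G cells with intact CBX8 were not analysed here. The sources do not say whether the knockout line is 1 clone or whether libraries came from separate cultures, so p-values measure only the spread between these libraries, which may be technical.

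Intermediate filaments are rope-like polymers whose makeup follows cell type. Vimentin is typical of mesenchymal cells and of immature glia, GFAP is the filament protein of mature astrocytes, nestin marks neural progenitors, synemin copolymerizes with vimentin or GFAP, and keratins form obligate pairs of a type I and a type II chain in epithelia. Lamins A and C, both made from LMNA, and the B-type lamins LMNB1 and LMNB2 line the inner nuclear membrane and hold chromatin there.

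Total counts per library lay between 7950190 and 8659796. CBX8 was counted 96, 104 and 83 times in the CBX8 KO libraries and 30372, 31408 and 27791 times in the re-expression libraries, so the labels match the vector. A level of 3 counts corresponds to 0.343 to 0.384 CPM (counts scaled to library size by TMM) and is used as a detection floor, which covers counting error only. Upon re-expression CBX8 stood at 3489 ± 156 CPM and VIM at 2820 ± 76.7 CPM (SD). CPM are not scaled to transcript length, and the length of the CBX8 transcript from the vector is not given. These levels are therefore not ranked. How the CBX8 level compares with that in T98G cells with intact CBX8 was not tested. Mitochondrial genes took 6.85 to 7.96% of counts in CBX8 KO and 5.96 to 6.99% upon re-expression. With these genes and CBX8 left out of the fit, 2 members were again called higher and 0 lower (KRT8 0.22, adjusted p = 0.00879, and KRT18 0.21, adjusted p = 0.0103 in edgeR).

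Promoter sequence is shown for the most abundant member (VIM), for a member that rose upon re-expression (KRT8) and for 2 scarce members (NES and SYNM), because CBX8 acts on chromatin at gene starts. Each run is the 250 bases before the RefSeq start in GRCh38.p14, read 5′ to 3′ on the strand of the gene. Capitals mark GC boxes (GGGCGG or CCGCCC) and CCAAT boxes (CCAAT or ATTGG), each searched on both strands. The windows are chr10:17227991-17228240 on the plus strand for VIM, chr12:52926470-52926719 on the minus strand for KRT8, chr1:156677408-156677657 on the minus strand for NES and chr15:99104830-99105079 on the plus strand for SYNM. The KRT8 and SYNM windows lie inside the GENCODE spans of these genes given with their values, because GENCODE also annotates transcripts that start further upstream. The KRT8 window precedes the start of a longer KRT8 transcript and not that of the canonical one, so its sequence need not be the promoter behind most KRT8 reads.
VIM: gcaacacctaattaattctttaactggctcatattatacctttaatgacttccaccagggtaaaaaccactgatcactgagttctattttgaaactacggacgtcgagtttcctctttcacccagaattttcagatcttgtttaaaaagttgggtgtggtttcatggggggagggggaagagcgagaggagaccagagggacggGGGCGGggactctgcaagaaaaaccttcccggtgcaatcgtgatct
KRT8: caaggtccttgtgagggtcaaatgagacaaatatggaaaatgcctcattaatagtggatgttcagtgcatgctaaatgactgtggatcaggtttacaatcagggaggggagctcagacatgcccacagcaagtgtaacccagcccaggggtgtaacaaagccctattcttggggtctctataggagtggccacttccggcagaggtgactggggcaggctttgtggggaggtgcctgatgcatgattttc
NES: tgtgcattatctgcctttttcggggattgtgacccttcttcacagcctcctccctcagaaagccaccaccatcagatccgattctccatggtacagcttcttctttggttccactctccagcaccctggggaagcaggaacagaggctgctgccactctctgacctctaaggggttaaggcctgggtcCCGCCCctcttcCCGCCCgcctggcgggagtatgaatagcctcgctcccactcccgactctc
SYNM: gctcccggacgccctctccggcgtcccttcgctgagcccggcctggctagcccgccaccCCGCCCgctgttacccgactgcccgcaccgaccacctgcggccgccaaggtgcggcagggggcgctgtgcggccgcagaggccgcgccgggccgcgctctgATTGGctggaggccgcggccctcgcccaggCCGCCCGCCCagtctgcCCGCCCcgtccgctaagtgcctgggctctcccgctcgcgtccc

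The VIM and NES windows each held 8 CpG dinucleotides, SYNM held 34 and KRT8 held 1, against a median of 11 over 35116 such windows. The VIM and NES windows therefore had the same CpG number, although the transcript levels of these genes differed widely. Whether most VIM or NES transcripts begin right after these windows was not tested. A GC box was found in the windows of VIM, NES and SYNM and in 42.64% of all windows, and a CCAAT box in that of SYNM and in 32.01% of all windows. TATAAA, present in 10.72% of windows, and the AP-1 sequence TGANTCA, present in 6.57%, were absent from these 4. No window was found in the table for GFAP, KRT18 or KRT19.

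Vimentin was by far the most abundant member, keratins 8 and 18 and the lamins followed, and SYNM, GFAP, NES and the keratin KRT19 were scarce. Levels between genes are given as CPM per kilobase of the canonical transcript, where the median of tested genes was 8.81. VIM reached 1268 ± 14.7 in CBX8 KO and 1309 ± 35.6 upon re-expression (SD, n = 3 each), which ranked it 31 among the 12623 tested genes with a length. KRT18 followed at 119 ± 2.61 and 138 ± 11.1. LMNA stood at 107 ± 7.56 and 114 ± 4.05 CPM per kilobase. All 3 were well above the median gene.

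LMNB1 reached 85.1 ± 4.33 and 79.6 ± 1.79 CPM per kilobase, LMNB2 reached 79.8 ± 2.94 and 76.5 ± 1.2, and KRT8 reached 46.2 ± 2.29 and 54.0 ± 1.56. SYNM stood at 0.503 ± 0.0862 and 0.599 ± 0.117, and GFAP at 0.332 ± 0.0506 and 0.530 ± 0.108, with 4.03% and 2.65% of ranked genes below them. NES (0.0369 ± 0.0344 and 0.0699 ± 0.0241) and KRT19 (0 and 0.0285 ± 0.0494) were too low for the test. Over the 6 libraries, neighbours in this order overlapped for LMNB1 and LMNB2, for SYNM and GFAP, and for NES and KRT19, and the other neighbours did not.

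**Figure D1:**
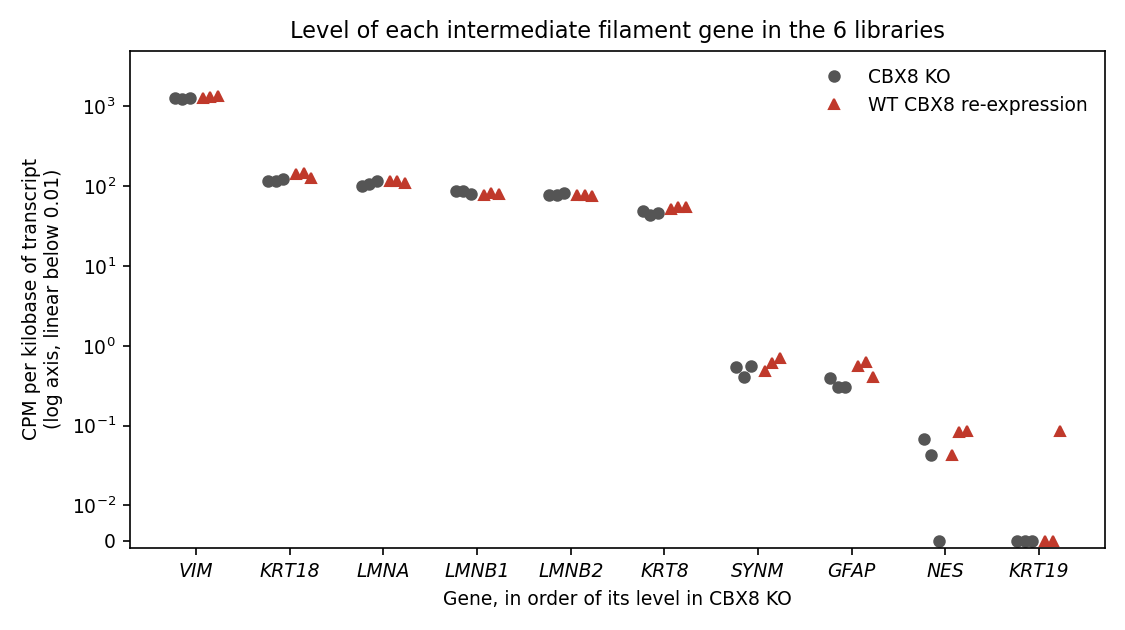
Level of each member in CPM per kilobase of transcript (log axis, linear below 0.01) in the 3 CBX8 KO libraries (grey circles) and the 3 WT CBX8 re-expression libraries (red triangles). VIM lies above 1252 in every library, KRT18, the lamins and KRT8 form a middle group, and SYNM, GFAP, NES and KRT19 lie below 1.

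Upon re-expression, 2 of the 8 tested members rose (KRT8 and KRT18), 0 fell, and 6 did not pass the test. At an unadjusted p under 0.05 edgeR had 3 higher (GFAP besides) and 0 lower, and DESeq2 and limma voom also called 0 lower. Across all 14461 tested genes, 12.9% were called (6.23% higher and 6.63% lower), and with 8 members the share called was not read as particular to this family. The median log2 fold change, always given as WT CBX8 re-expression minus CBX8 KO, was 0.16 over the 8 members and 0.0049 over all tested genes. The conditions did not overlap for 5 members, with VIM, GFAP, KRT8 and KRT18 above and LMNB2 below upon re-expression, whereas 28.9% of all tested genes did not overlap. In bulk RNA, fewer cells expressing a gene and less RNA per cell cannot be told apart.

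KRT8 encodes the type II keratin of simple epithelia and lies at chr12:52897187-52949954 on the minus strand of hg38. It was counted 687, 661 and 642 times in CBX8 KO and 793, 853 and 827 times upon re-expression, which is 86.7, 78.5 and 82.2 CPM against 93.2, 97.4 and 98.5 CPM. Every re-expression library was above every CBX8 KO library. The log2 fold change was 0.23 (SE 0.057, 95% interval 0.11 to 0.34), a 16.9% higher level, with an adjusted p of 0.0081 in edgeR's quasi-likelihood test.

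KRT18 encodes the type I partner of KRT8 and is its neighbour in the genome, at chr12:52948871-52952906 on the plus strand. Its counts were 1317, 1402 and 1350 in CBX8 KO and 1692, 1826 and 1494 upon re-expression, or 166, 167 and 173 CPM against 199, 209 and 178 CPM. The conditions again did not overlap, and replicate 3 of re-expression was the one closest to CBX8 KO. The log2 fold change was 0.21 (SE 0.055, 95% interval 0.10 to 0.33), a 15.8% higher level, with an adjusted p of 0.010 in the same edgeR test. Without CBX8 KO replicate 2 the adjusted p was 0.08 for KRT8 and 0.0533 for KRT18, and without re-expression replicate 2 it was 0.0515 and 0.12, so both calls rest on these libraries. The exons of the 2 genes share 525 bases on opposite strands, and the library preparation described marks no strand, so reads in that stretch cannot be told apart.

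The log2 ratio of KRT8 to KRT18 per length differed by 0.02 between the conditions (exact two-sided permutation p = 1 in a design whose smallest p is 0.1), the ratio being 0.387 in CBX8 KO and 0.392 upon re-expression. This log2 difference ranged from -0.06372 to 0.06366 without 1 library, so its direction was not settled. The partner chain KRT19, a type I keratin at chr17:41523617-41528308, had 0 counts in 5 libraries and 1 count in re-expression replicate 3. This is below the floor of 3 counts, so KRT19 was not detectable at this depth. Over the 6 libraries, the genes most like KRT8 by Pearson correlation of log2 CPM among 10387 genes were HELLS (r = 0.996), CCDC28B (0.995) and EIF2AK1 (0.994), and those most like KRT18 were MYPN (0.997), CEP19 (0.993) and CPT1A (0.989). All of these points share the same 6 libraries and the same contrast, and the values are a description.

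Processed pseudogenes are copies of a spliced transcript, and keratins 8 and 18 have many. The table held 50 rows named as KRT8 pseudogenes and 67 as KRT18 pseudogenes, of which 14 and 25 had a count. Their summed counts came to 9.26 to 13.3% of those of KRT8 and 1.48 to 5.49% of those of KRT18 per library. KRT8P12 carried most of the KRT8 copies, with 68 to 79 counts in each library, and did not pass the test (log2 fold change -0.13, adjusted p = 0.61 in edgeR).

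Of the KRT18 copies, KRT18P12 was counted 1, 2 and 0 times in CBX8 KO and 26, 25 and 35 times upon re-expression (adjusted p = 3.6e-07 in edgeR). It lies at chr1:214532195-214533467, where 1213 of its bases overlap exons of PTPN14 on the other strand. PTPN14, a tyrosine phosphatase gene, also rose, by a log2 fold change of 0.42 (adjusted p = 0.00035 in edgeR). A stretch of 100 bases of both transcripts is shown because a read of 100 bp decides between them only at the differing bases. KRT18P12 matched KRT18 at 90.82% of 1264 aligned bases, and capitals mark the 9 mismatches in this stretch, which covers bases 911 to 1010 of the KRT18 transcript and bases 837 to 936 of KRT18P12.
KRT18: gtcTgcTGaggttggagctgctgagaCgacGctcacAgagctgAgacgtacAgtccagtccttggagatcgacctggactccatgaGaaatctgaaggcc
KRT18P12: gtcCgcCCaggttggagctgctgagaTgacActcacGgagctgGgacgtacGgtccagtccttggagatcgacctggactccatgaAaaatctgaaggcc

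With all pseudogene counts added to the parent genes, KRT8 remained higher by a log2 fold change of 0.19 (adjusted p = 0.0226 in edgeR) and KRT18 by 0.24 (adjusted p = 0.00245). On the 261 alternate contigs of hg38, 50.2% of the KRT18 transcript had a match, against 0 for KRT8, and its effect on the counts was not tested.

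**Figure D2:**
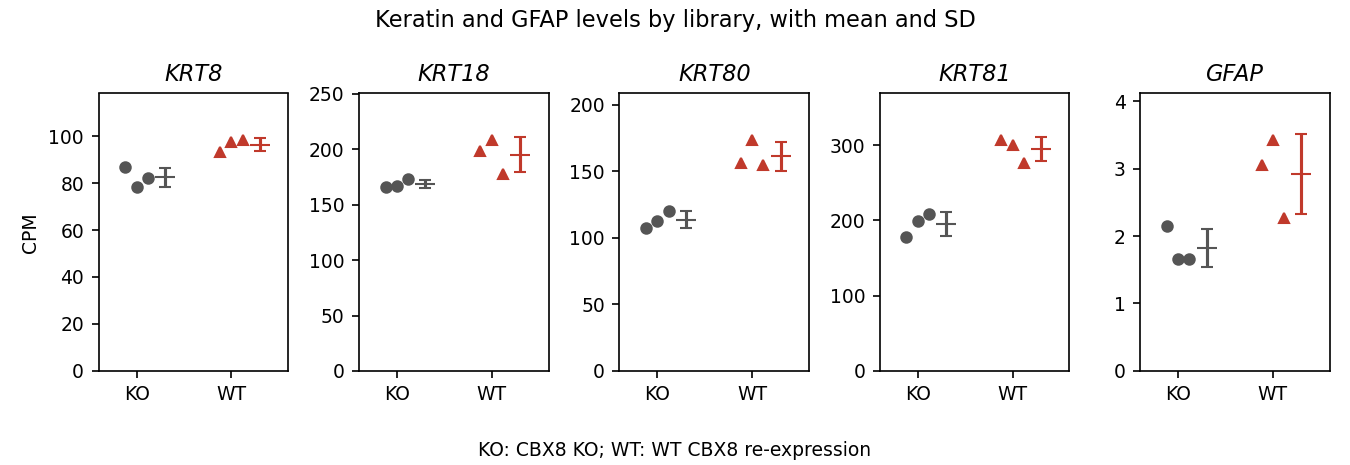
CPM of KRT8, KRT18, KRT80, KRT81 and GFAP in each library (points), with the mean and SD of 3 libraries per condition beside them. The axes start at 0 and differ between panels. In all 5 panels the re-expression libraries lie above the CBX8 KO libraries, and GFAP stays below 4 CPM.

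VIM, at chr10:17228241-17237593 on the plus strand, was the member with most counts in every library. It was counted 21665, 22699 and 21563 times in CBX8 KO and 23486, 24449 and 24414 times upon re-expression, or 2734, 2697 and 2760 CPM against 2760, 2793 and 2907 CPM. The closest libraries of the conditions were nearly level (2759.7 and 2760.5 CPM). The log2 fold change of 0.05 (SE 0.050, 95% interval -0.06 to 0.15) did not pass the test (adjusted p = 0.61 in edgeR). VIM-AS1, a noncoding gene that shares 656 exon bases with VIM on the other strand, had 18.4 to 19.6% of the VIM counts in each library. Reads in the shared stretch cannot be told apart by strand, and with VIM-AS1 added the log2 fold change of VIM was again 0.05 (adjusted p = 0.60 in edgeR).

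GFAP, at chr17:44903159-44916937 on the minus strand, was counted 17, 14 and 13 times in CBX8 KO and 26, 30 and 19 times upon re-expression. These counts are 2.15, 1.66 and 1.66 CPM against 3.06, 3.43 and 2.26 CPM. The conditions did not overlap, but the closest libraries differed by 2 counts. The log2 fold change of 0.68 (SE 0.29, 95% interval 0.09 to 1.26) did not pass the test over all genes (adjusted p = 0.13, unadjusted p = 0.026 in edgeR). Of the GFAP transcript, 2232 exon bases are shared with CCDC103 on the other strand, which had 41 to 63 counts per library and a log2 fold change of -0.34 (adjusted p = 0.24 in edgeR).

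SYNM, at chr15:99098217-99135593, was counted 32, 25 and 32 times in CBX8 KO and 30, 39 and 44 times upon re-expression. The conditions overlapped, and the log2 fold change of 0.25 (SE 0.22, 95% interval -0.21 to 0.72) did not pass the test (adjusted p = 0.53 in edgeR). NES, at chr1:156668763-156677407, was counted 3, 2 and 0 times and 2, 4 and 4 times. These counts lie at or next to the floor of 3 counts, so a difference in NES was not detectable at this depth.

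Relative to VIM within the same library, GFAP differed by 0.62 and SYNM by 0.20 on the log2 scale. Neither passed an exact two-sided permutation test (p = 0.2 and 0.4, adjusted 0.4 and 0.6 over the 6 ratios tested, with 0.1 the smallest p that 3 against 3 libraries allow). Per length, GFAP transcripts stood at 0.00026 of VIM in CBX8 KO and 0.00040 upon re-expression.

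LMNA, at chr1:156082573-156140081 on the plus strand, encodes the A-type lamins. It was counted 2511, 2828 and 2849 times in CBX8 KO and 3139, 3268 and 2933 times upon re-expression, or 317, 336 and 365 CPM against 369, 373 and 349 CPM. The conditions overlapped through CBX8 KO replicate 3 and re-expression replicate 3. LMNA had a log2 fold change of 0.10 (95% interval -0.01 to 0.21) and did not pass the test (adjusted p = 0.23 in edgeR).

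LMNB1, at chr5:126776623-126837020, is a B-type lamin gene whose level is often tied to proliferation. It was counted 2001, 2138 and 1810 times in CBX8 KO and 1912, 2057 and 1939 times upon re-expression, or 253, 254 and 232 CPM against 225, 235 and 231 CPM. The conditions overlapped through CBX8 KO replicate 3. For LMNB1 it was -0.10 on the log2 scale (95% interval -0.20 to 0.01, adjusted p = 0.23 in edgeR).

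LMNB2, at chr19:2427638-2456959 on the minus strand, encodes the other B-type lamin, and its locus served as the comparison region in the study's chromatin assays of fibroblasts. It was counted 2853, 3066 and 3012 times in CBX8 KO and 3054, 3114 and 2924 times upon re-expression. In CPM these were 360, 364 and 385 against 359, 356 and 348, so all re-expression libraries were lower, the closest by about 1 CPM. The log2 fold change was -0.06 (95% interval -0.16 to 0.04, adjusted p = 0.45 in edgeR). Corrected for GC content and length it was -0.12 with an adjusted p of 0.0483, which passed the threshold.

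Per length, LMNA made up 39.3 ± 1.84% of lamin transcripts in CBX8 KO and 42.3 ± 0.71% upon re-expression, LMNB1 31.4 ± 2.23% and 29.4 ± 0.75%, and LMNB2 29.4 ± 0.52% and 28.3 ± 0.36% (SD, n = 3). The lamin total was 272 ± 6.65 and 271 ± 5.38 CPM per kilobase. The log2 ratio of LMNB2 to LMNA differed by -0.16 and that of LMNB1 to LMNA by -0.20, with exact permutation p of 0.1 and 0.2 (both 0.4 after adjustment). The smallest p this design allows is 0.1, so no ratio could pass. The ratio of LMNB2 to LMNB1 differed by 0.03 (exact permutation p = 0.6).

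**Figure D3:**
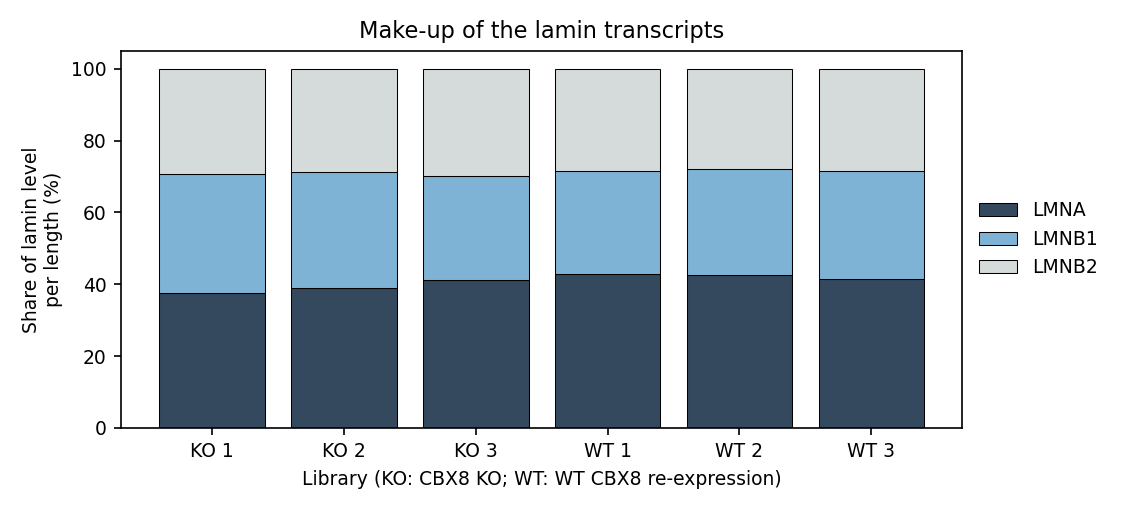
Share of each lamin gene in the summed CPM per kilobase of the 3 lamin genes (percent, bars stacked to 100), for each of the 6 libraries. LMNA takes 37.7 to 41.3% in the CBX8 KO libraries and 41.5 to 42.8% in the re-expression libraries.

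Proteins that bind lamins or sit in the same membrane were described beside them. Of 19 nuclear envelope genes, 18 were tested, of which 2 rose, 1 fell and 15 did not pass, with a median log2 fold change of 0.03. Called were 16.7% of those tested, against 12.9% of all tested genes. The lists were chosen with earlier results of these data known, so no share called was read as particular to its list. SYNE3 (0.52, adjusted p = 0.0256) and SYNE1 (0.47, adjusted p = 0.0307), which encode nesprins that link the nucleus to the cytoskeleton, rose, and LBR (-0.16, adjusted p = 0.0242 in edgeR), the lamin B receptor, fell. The SYNE3 libraries overlapped between the conditions. TMPO, the gene of the lamin-binding LAP2 proteins, stood at 263 ± 4.89 and 265 ± 3.24 CPM, and SUN2, of the inner membrane, at 124 ± 10.4 and 134 ± 4.74 CPM. These calls depend on the method and on single libraries. SYNE3 and SYNE1 were not called by DESeq2 (0 higher), no gene of the list was called in either direction with the GC and length correction, and LBR was not called with the replicate block or with library size scaling (0 lower). The 2 higher became 0 without CBX8 KO replicate 1 or 2 or re-expression replicate 2 and 1 without re-expression replicate 3, and the 1 lower became 0 without any 1 library except CBX8 KO replicate 3. Of the 5 genes that farnesylate and trim lamins, all were tested and 0 were called by edgeR, DESeq2 or limma voom, with 1 (FNTB, a farnesyltransferase subunit, lower) at an unadjusted p under 0.05 in edgeR. The most abundant of them were ICMT (128 ± 9.23 and 126 ± 2.10 CPM), ZMPSTE24 (128 ± 5.69 and 122 ± 1.56 CPM) and RCE1 (33.8 ± 2.91 and 33.8 ± 1.84 CPM).

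The keratin pair was compared with the rest of its family. Of 61 other intermediate filament genes, 37 had no count in any library and 9 were tested, of which 2 rose, 2 fell and 5 did not pass. The share called was 44.4% of those tested, against 12.9% of all tested genes. KRT81, a type II hair keratin, stood at 178, 200 and 209 CPM in CBX8 KO and at 307, 300 and 277 CPM upon re-expression. Its log2 fold change was 0.59 (SE 0.057, adjusted p = 2.5e-08 in edgeR), but its transcript matches that of KRT86 at 96.6% of 1325 aligned bases and that of KRT83 at 94.1% of 1422. KRT86 had 204 counts and KRT83 1 count over all 6 libraries, and how reads of these genes were divided is uncertain.

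KRT80, a type II epithelial keratin, stood at 108, 113 and 121 CPM against 156, 174 and 154 CPM, with a log2 fold change of 0.51 (SE 0.057, adjusted p = 4.0e-07 in edgeR). Neither KRT80 nor KRT81 overlapped between the conditions. IFFO2, which encodes a filament-like protein, fell from 71.1 ± 3.86 to 57.4 ± 3.46 CPM (log2 fold change -0.31, adjusted p = 0.0017 in edgeR). The other gene that fell was KRT4, an epithelial type II keratin named after its values were seen, from 2.77 ± 0.31 to 0.702 ± 0.015 CPM. KRT7, KRT10, KRT86, BFSP1 and IFFO1 did not pass. The genes without a count included NEFL, NEFM and INA, which encode neuronal filaments, and KRT5 and KRT14, the pair of basal epithelium.

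**Figure D4:**
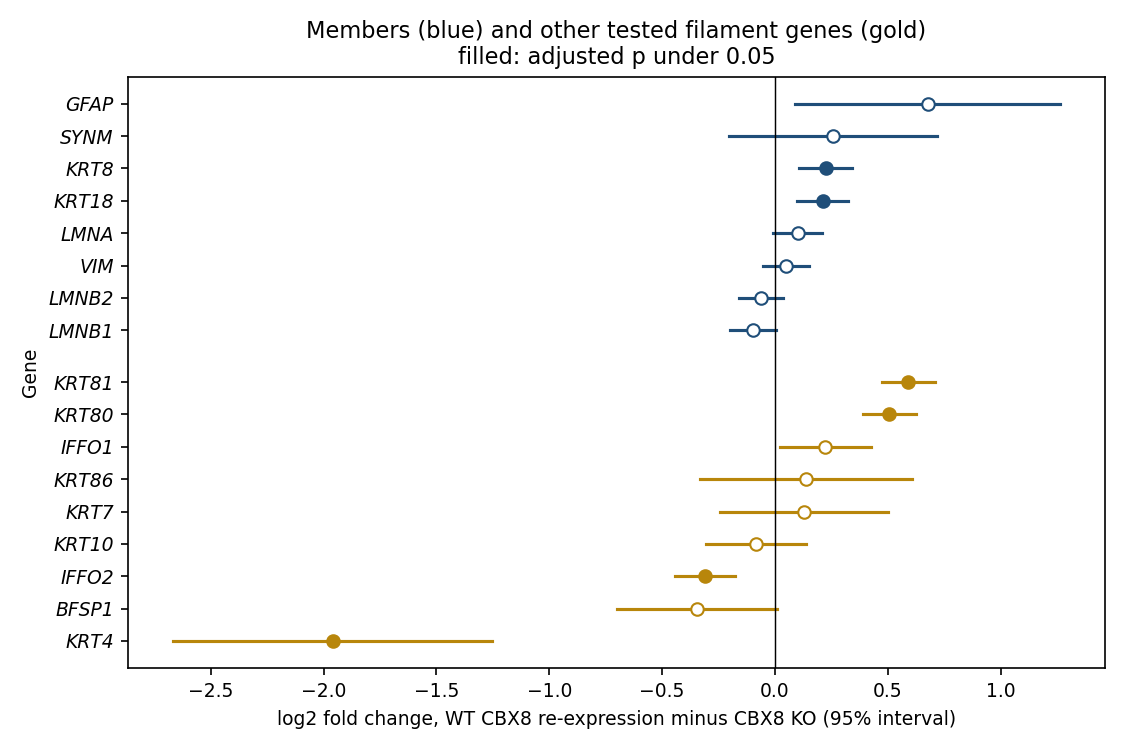
log2 fold change (WT CBX8 re-expression minus CBX8 KO) with its 95% interval for the 8 tested members (blue) and the 9 other tested intermediate filament genes (gold). Filled points passed the test: KRT8 (0.23) and KRT18 (0.21) among members, and KRT81, KRT80, IFFO2 and KRT4 among the others.

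Among the 66 cytoplasmic filament genes summed per length, VIM made up 79.9 ± 0.49% of the level in CBX8 KO and 76.2 ± 1.37% upon re-expression. KRT18 made up 7.52 ± 0.064% and 8.04 ± 0.70%, KRT8 2.91 ± 0.14% and 3.15 ± 0.058%, and GFAP 0.0209 ± 0.0033% and 0.0309 ± 0.0065%. KRT81 took 6.39 ± 0.47% and 8.90 ± 0.57%. The summed level per length of 26 type II keratins over 28 type I keratins was 1.40 ± 0.034 in CBX8 KO and 1.71 ± 0.065 upon re-expression, a measure chosen after the values were seen and not tested.

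Linkers and chaperones of filaments were described next. Of 16 such genes, 10 were tested, 4 rose and 0 fell (0 lower also at an unadjusted p under 0.05 in edgeR, and with DESeq2 and limma voom), with a median log2 fold change of 0.07. The share called was 40% of those tested, against 12.9% of all tested genes. With the GC and length correction, 3 of these genes were higher and 1 lower. DESeq2 and the replicate block each had 3 higher, and leaving out 1 library gave 3 or 4. At a minimum 1.5-fold change 1 was higher. PKP2, a plakophilin of desmosomes, rose from 1.85 ± 0.51 to 4.49 ± 0.75 CPM (1.26, adjusted p = 0.0015 in edgeR). MACF1 (0.42, adjusted p = 0.00025) and DST (0.33, adjusted p = 0.0040), which encode spectraplakins that bridge cytoskeletal polymers, and HSPB1 (0.15, adjusted p = 0.0353 in edgeR), a small heat shock protein that binds filaments, rose as well. PLEC, the gene of the vimentin linker plectin, was the most abundant at 715 ± 46.1 and 738 ± 38.3 CPM and did not pass (adjusted p = 0.65 in edgeR). FAM83H had no count.

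The filament genes were set beside marker genes of glial and of mesenchymal cells. Of 25 glial markers, 8 had no count in any library (S100B, AQP4, FABP7, SOX2, PTPRZ1, OLIG1, PROM1 and HEPACAM), 11 were tested, and 4 lay above the median level of tested genes. AQP4, a defining gene of astrocytes, was thus not detected in a line labelled as glioblastoma. SLC1A3, GLUL and SOX9 of the same list were detected. At FDR < 0.05, 0 rose by edgeR, DESeq2 or limma voom, and 4 fell by edgeR. The share called by edgeR was 36.4% of those tested, against 12.9% of all tested genes. At an unadjusted p under 0.05 in edgeR, 3 were higher: OLIG2, a transcription factor of the oligodendrocyte lineage (0.85, adjusted p = 0.056), GJA1, the astrocytic connexin (0.69, adjusted p = 0.15), and CLU (0.12, adjusted p = 0.16). The 4 that fell were SLC1A3, a glutamate transporter (24.6 ± 1.52 to 18.1 ± 3.04 CPM, log2 fold change -0.45), GLUL, glutamine synthetase (12.3 ± 1.56 to 9.06 ± 1.13 CPM, -0.44), SOX9 (92.3 ± 6.10 to 76.4 ± 5.08 CPM, -0.27) and NFIX (445 ± 6.18 to 377 ± 3.89 CPM, -0.24), the last 2 encoding transcription factors of glial development. Their adjusted p in edgeR were 0.0072, 0.0342, 0.0039 and 0.00070. CLU (123 ± 7.81 and 134 ± 5.39 CPM) and CST3 (92.4 ± 9.42 and 90.4 ± 5.74 CPM), secreted proteins of astrocytes, did not pass. Without re-expression replicate 1, and without re-expression replicate 2, 2 glial genes were called lower, and without re-expression replicate 3, 1 was called higher. The median over the tested glial genes was -0.03, and the summed level of the list was 828 to 835 CPM in CBX8 KO and 730 to 769 CPM upon re-expression. NFIX, the most abundant of them, weighs most in this sum, so the sum does not describe the list as a whole.

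Of 30 mesenchymal markers, 28 were tested and 20 lay above the median level, with TGFBI (3099 ± 79.9 and 2985 ± 28.9 CPM), CD44 (2895 ± 147 and 2506 ± 129 CPM) and THBS1 (2679 ± 123 and 2484 ± 162 CPM) the most abundant. Of these, CD44, a hyaluronan receptor, fell (-0.21, adjusted p = 0.0097 in edgeR, no overlap). VIM, at 2730 ± 31.6 and 2820 ± 76.7 CPM, had a level in their range by CPM, which is not scaled to length. Scaled to length, VIM stood above CD44, with means over the 6 libraries of 1288 and 497 CPM per kilobase. Upon re-expression 7 rose and 5 fell, with a median of -0.01. Without CBX8 KO replicate 1 these were 4 and 3, and without re-expression replicate 2 they were 4 and 4. With all libraries the share called was 42.9% of those tested, against 12.9% of all tested genes. ACTA2 (1.16 ± 0.14 to 3.11 ± 0.80 CPM, log2 fold change 1.42) and TAGLN (3.12 ± 0.68 to 6.39 ± 0.89 CPM, 1.04), of contractile cells, and COL1A1, a fibrillar collagen (10.4 ± 2.07 to 20.4 ± 0.79 CPM, 0.98), rose, with adjusted p of 0.0029, 0.0013 and 3.0e-06 in edgeR. MMP2, a matrix metalloprotease (973 ± 25.1 to 647 ± 7.06 CPM, -0.59), LOX, which crosslinks collagen (134 ± 5.21 to 91.7 ± 2.45 CPM, -0.54), and SNAI2, a transcription factor (91.1 ± 8.65 to 66.8 ± 3.34 CPM, -0.45), fell, with adjusted p of 1.3e-09, 4.4e-08 and 2.5e-05. The summed mesenchymal level was 15666 to 16017 CPM in CBX8 KO and 14723 to 15198 CPM upon re-expression. This sum is weighted to abundant genes, among them CD44 and MMP2, which fell, and does not describe the list as a whole. FN1, which encodes fibronectin and was named after its values were seen, is also abundant and rose. It went from 542 ± 13.9 to 633 ± 37.4 CPM (log2 fold change 0.22, adjusted p = 0.0031 in edgeR, no overlap).

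In both conditions VIM had a level in the range of abundant mesenchymal genes by CPM not scaled to length, and GFAP, SYNM and NES were scarce. KRT18, KRT8 and the lamins lay between them. SYNM and NES were not on the glial list. Of the 25 genes of that list, 4 (CST3, NFIX, CLU and SOX9) lay above the median level and 8 had no count. VIM did not pass the test in either direction, the mesenchymal list moved both ways, and 4 glial markers fell while GFAP, OLIG2, GJA1 and CLU stood higher without passing. No test compared the lists with each other.

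**Figure D5:**
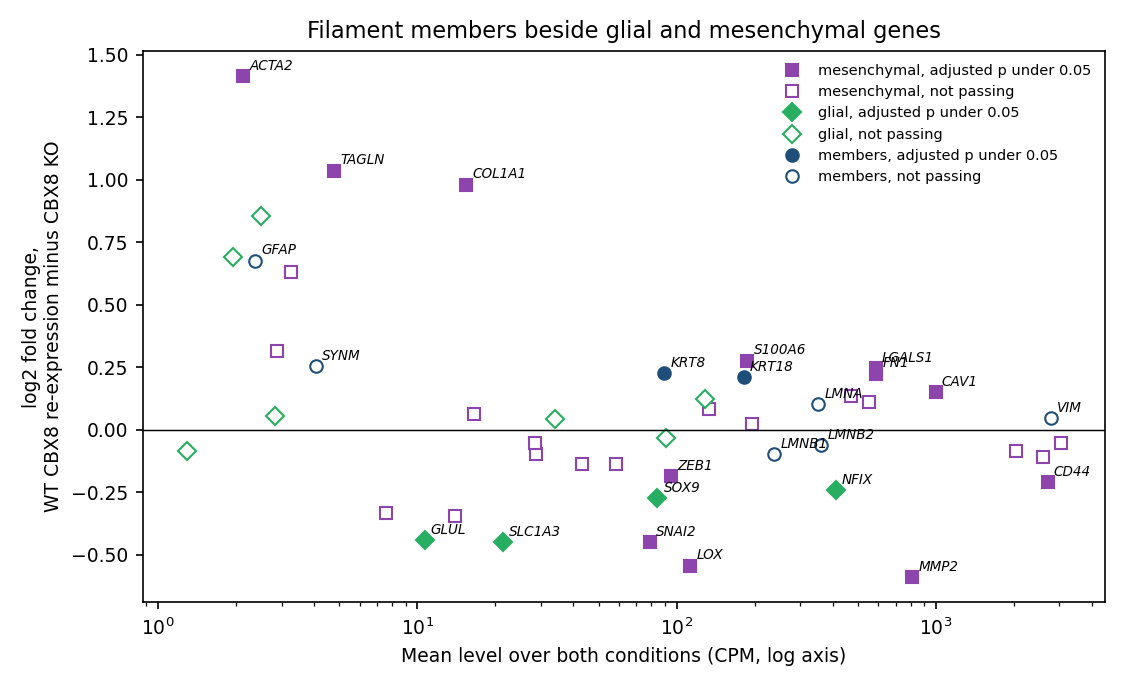
log2 fold change (WT CBX8 re-expression minus CBX8 KO) against mean CPM over both conditions (log axis) for the tested mesenchymal markers (squares), glial markers (diamonds) and filament and lamin members (circles). Filled symbols passed the test. VIM lies at the right near 0, at a CPM, not scaled to length, like that of the most abundant mesenchymal genes. GFAP lies at the left, and mesenchymal genes lie on both sides of 0.

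Immune markers, endothelial markers and epithelial markers other than keratins were low. Of 11 epithelial markers other than keratins, only CLDN4 was tested (adjusted p = 0.77 in edgeR), and their summed level was 2.85 to 3.07 CPM in CBX8 KO and 2.97 to 4.05 CPM upon re-expression. CLDN4, ESRP2 and ELF3 were the highest of them. KRT8 and KRT18 therefore differed between the conditions in cells with little transcript of these 11 markers. The epithelial keratin KRT80 was more abundant, at 114 ± 6.51 and 161 ± 10.7 CPM. Immune markers summed to 4.80 to 7.68 and 6.11 to 7.38 CPM, where CD68, CSF1R and ITGAM were tested (adjusted p of 0.89, 0.81 and 0.83 in edgeR) and AIF1 and TYROBP had no count. Endothelial markers summed to 1.77 to 3.20 and 1.55 to 2.28 CPM, where TEK alone was tested (adjusted p = 0.76 in edgeR), CLDN5 and VWF came next and KDR had no count.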

How the data were processed

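Poly(A)-enriched RNA from the 6 T98G samples was sequenced as 100 bp paired-end reads. The authors checked reads with FastQC, trimmed them with Trimmomatic, used HISAT2 on Galaxy to align them to hg38, and deposited raw counts per gene symbol. The program that counted the reads, the gene annotation, the treatment of strand and all tool versions are not given in the sources used here.

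Counts were analysed with edgeR 4.0.16 in R 4.3.3: filterByExpr left 14461 genes, which were scaled by TMM and compared with glmQLFit and glmQLFTest, two-sided, with condition as the only term. Benjamini-Hochberg adjustment ran over all tested genes, with calls at FDR < 0.05. CPM uses TMM-scaled library sizes, and levels between genes use CPM per kilobase of the canonical transcript in GENCODE release 44. Standard errors of log2 fold changes were derived from the F statistic. Ratios between members were compared by exact two-sided permutation tests. Likeness between genes used log2(CPM + 0.5). The fit was tested on simulated data for the same comparison (14287 genes): it called 97 of 100 genes changed by 1 on the log2 scale, 76 of 100 changed by 0.5, and 9 unchanged genes. The changed genes were drawn only from genes above a set mean CPM, which GFAP did not reach. These shares therefore do not cover genes as scarce as GFAP. Changes smaller than 0.5, such as those of KRT8, KRT18, VIM and the lamins, were not simulated, so the shares do not cover them either.

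The members and all gene lists were chosen with earlier results of these data known. Named were all 10 members and, from each list, the 6 largest changes among genes at FDR < 0.05 whose average log2 CPM was 1 or more, the 3 highest levels and, for markers, those without a count. Pseudogenes of members with at least 10 counts were screened, and for each member that changed the 3 most alike genes are given. Promoter windows are from RefSeq (GRCh38.p14), transcripts were aligned with blast 2.17.0, and copies on alternate contigs were searched with minimap2 2.31-r1302. Alternatives tried were scaling by RLE, by the upper quartile and by library size alone, 2 other filters, DESeq2 1.42.0, limma 3.58.1 voom, legacy set to FALSE, a GC and length correction, the replicate number as a block, FDR < 0.01, a minimum 1.5-fold change, each library left out in turn, keratin pseudogene counts added to the parent genes, and, chosen after seeing the data, VIM-AS1 counts added to VIM and CBX8 with the mitochondrial genes left out. The results of 2 of the named genes are not reported here.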

Additional observations from a re-analysis of the deposited data

How the results depend on the processing

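For the 8 tested members, 168 fits under other settings gave 161 calls on the same side of the threshold in the same direction, 6 that lost it, 1 that gained it and 0 of opposite sign. The 6 are KRT8 and KRT18 without CBX8 KO replicate 2, without re-expression replicate 2 and at a minimum 1.5-fold change, where 0 members were higher. Leaving out 1 library left 0 to 2 members higher. The 1 is LMNB2 with the GC and length correction, where 1 member was lower. Over all these settings the log2 fold change lay between 0.19 and 0.28 for KRT8 and between 0.16 and 0.27 for KRT18. With DESeq2 the adjusted p was 0.0387 and 0.0241.

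For glial genes, 2 were higher with library size scaling alone and 1 without a filter on low counts, 0 were lower at a minimum 1.5-fold change, and leaving out 1 library gave 0 to 1 higher and 2 to 4 lower. For mesenchymal genes, 3 were higher and 1 lower at a minimum 1.5-fold change, and leaving out 1 library gave 4 to 7 higher and 3 to 6 lower. For the other lists 157 of 190 counts stayed within 1.5 times, 30 were smaller and 3 larger. Of 42 ratio fits 5 changed sign, all without 1 library: the log2 difference of KRT8 to KRT18 ranged from -0.06372 to 0.06366 and that of LMNB2 to LMNB1 from -0.005256 to 0.1062. The cause was not tested.

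Library size scaling alone put the median log2 fold change of all genes at 0.0602, against 0.0049 with TMM. Same-numbered libraries did not deviate together (correlations -0.14, -0.15 and -0.09 over 10393 genes). This check cannot tell whether they were handled together. With the replicate block, 2 members were again higher (KRT8 0.23, adjusted p = 0.0232, and KRT18 0.21, adjusted p = 0.0268), and no member's call changed. Depth limits NES and KRT19, which were not tested, and GFAP and SYNM, whose counting error alone was 22.5% and 17.2%.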

Other observations

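Neuronal markers moved in both directions beside the filament genes. Of 15 such markers, 7 were tested, and DCX, STMN2 and ELAVL4 were among those without a count. The share called was 42.9% of those tested, against 12.9% of all tested genes. TUBB3, a neuronal tubulin (5.46 ± 0.58 to 9.0 ± 2.01 CPM, log2 fold change 0.72), and ENO2, the neuronal enolase (41.5 ± 2.27 to 49.1 ± 2.03 CPM, 0.24), rose, and MAP2, a microtubule-associated protein of dendrites (17.4 ± 1.70 to 10.6 ± 1.64 CPM, -0.72), fell, with adjusted p of 0.0064, 0.0297 and 0.00025 in edgeR. Without any 1 library except CBX8 KO replicate 3, 1 was called higher, and without CBX8 KO replicate 1, 2 were called lower. SOX4 (30.3 ± 3.70 and 26.8 ± 2.26 CPM) and SOX11 (16.8 ± 1.40 and 13.5 ± 1.01 CPM) did not pass. ENO2 was the highest of the list, and the neurofilament genes NEFL, NEFM and INA had no count in any library.

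Of 7 oligodendrocyte markers, 2 were tested. MYRF, a transcription factor of myelination, rose from 11 ± 2.0 to 21.9 ± 1.64 CPM (log2 fold change 0.99, adjusted p = 1.7e-06 in edgeR), whereas CNP stood at 152 ± 1.17 and 161 ± 5.22 CPM and did not pass. MOG and MAG, which encode myelin proteins, had no count.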
